A study of Mus musculus with 4 samples.

Results

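The antigen receptor loci, which encode the immunoglobulins of B cells and the T-cell receptors of T cells, were examined in a mouse pre-B leukemia mapped by chromatin immunoprecipitation and sequencing (ChIP-seq). They were taken as 6 fixed windows of mouse build mm9, and a peak was a member when its summit lay inside a window. Igh (immunoglobulin heavy chain) was chromosome 12 from 114.45 to 117.26 Mb, Igk (kappa light chain) chromosome 6 from 67.45 to 70.75 Mb, and Igl (lambda light chain) chromosome 16 from 18.98 to 19.3 Mb. Tcra/Tcrd (alpha and the nested delta chain) was chromosome 14 from 52.9 to 54.9 Mb, Tcrb chromosome 6 from 40.8 to 41.6 Mb, and Tcrg chromosome 13 from 19.25 to 19.47 Mb. The windows held 321 of the 115753 deposited peaks, namely 146 of 77749 PHF6 peaks, 145 of 32388 H3K27ac peaks and 30 of 5616 H3K27me3 peaks.

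All libraries came from the same kind of cell, a pre-B cell leukemia of strain C57BL/6J that overexpressed the BCR-ABL1 fusion kinase and lacked p19. The series held 4 libraries: ChIP for PHF6, for H3K27ac and for H3K27me3, and an input DNA library without antibody that was not analysed here. Each antibody had 1 library, so no value below has a replicate error and no p-value was computed. The labels do not say whether the culture was 1 clone, and DNA copy number at the rearranging loci was not analysed here. The libraries were made from many cells, so the share of cells with a mark and its amount per cell cannot be told apart. The labelled cell type was not checked against marker genes, because gene positions of mm9 were not used here.

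PHF6 is a nuclear protein with PHD-type zinc fingers. The series title concerns its part in B-cell identity. H3K27ac marks active promoters and enhancers, and H3K27me3 is laid down by Polycomb repressive complex 2. Each antigen receptor chain is assembled from separate variable (V), in some loci diversity (D), and joining (J) segments, which the RAG recombinase cuts and joins next to a constant (C) gene. Pre-B cells have assembled a heavy chain and are at or near the stage of light chain assembly, while T-cell receptor loci are assembled in developing T cells. Enhancers of these loci lie mostly near the constant genes, among them one between the J segments and the mu constant gene of Igh and a regulatory region beyond its last constant gene.

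The RefSeq gene table (GRCm38.p6, used for names and order only) listed 215 segments and constant genes for Igh, of which 183 were V segments, and 168 for Igk with 162 V segments. It listed 12 for Igl, 202 for Tcra/Tcrd, 53 for Tcrb and 15 for Tcrg, pseudogenes included. In the order of that table, constant genes lie at the lower-coordinate end of Igh, beside Tmem121. They lie at the higher-coordinate end of Igk and Tcra/Tcrd, beside Rpia and Dad1. In Tcrb the constant genes were taken to lie toward the higher-coordinate end by textbook order. There the table places a V segment, Trbv31, last before Ephb6. Distances below are counted from the constant-gene end in these windows. Igl and Tcrg consist of several V, J and C groups, and their distances are counted from the lower-coordinate end. Between the segments the table placed 2 protein-coding genes in Igh (Adam6a and Adam6b), 13 in Tcrb, 4 in Tcra/Tcrd and 0 in the other windows.

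PHF6 peaks were about equally frequent in all 6 windows and below the mean of the genome. Igh had 14.9 PHF6 peaks per Mb (95% exact Poisson interval 10.8 to 20.2, 42 peaks), Igk 15.5 (11.5 to 20.3, 51 peaks) and Igl 15.6 (5.07 to 36.5, 5 peaks). Tcra/Tcrd had 15.5 (10.5 to 22.0, 31 peaks), Tcrb 16.3 (8.65 to 27.8, 13 peaks) and Tcrg 18.2 (4.95 to 46.6, 4 peaks). The genome mean of the PHF6 list was 29.3 per Mb, above the intervals of Igh, Igk, Tcra/Tcrd and Tcrb but inside those of Igl and Tcrg. These intervals cover counting error only. The immunoglobulin and T-cell receptor windows differed little in PHF6 density, with 15.2 and 15.9 peaks per Mb and a ratio of 0.959 (95% exact interval 0.672 to 1.38).

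The contrast with the flanks depended on the side. Each window was set beside 2 flanks of its own length. PHF6 density in Igh was 0.158 times that of the flanks (0.113 to 0.217), but 483 of the 530 flank peaks lay on the lower-coordinate side. Against the higher-coordinate flank alone the ratio was 0.894. In Igk the ratio was 0.658 (0.470 to 0.908), and it was 1.65 against the lower flank and 0.411 against the higher flank. In Tcra/Tcrd it was 0.244 (0.162 to 0.355), and it stayed below 1 on both sides, at 0.470 and 0.165. In Igl, Tcrb and Tcrg the intervals of the PHF6 ratio included 1 (0.526, 1.30 and 1). In covered bases, PHF6 peaks took up 18.6 kb per Mb in Igh against 165 kb per Mb in its flanks, and 15.7 against 88.3 kb per Mb in Tcra/Tcrd. Mean covered length per PHF6 peak was 1244 bp in Igh and 1746 bp in its flanks, so fewer and shorter peaks both entered the difference.

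H3K27ac was spread unevenly over the windows. Tcrg had the highest density, with 11 peaks in 0.22 Mb or 50.0 per Mb (24.96 to 89.5), against 4 peaks or 9.09 per Mb in its flanks, a ratio of 5.5 (1.63 to 23.7). Igl followed with 28.1 per Mb (12.9 to 53.4), and its ratio to the flanks of 3 had an interval that included 1 (0.954 to 10.2). Igh had 19.9 per Mb (15.1 to 25.9) and Igk 13.6 (9.95 to 18.2), both with intervals that overlap those of Igl. Tcra/Tcrd had 9.0 (5.33 to 14.2) and Tcrb 7.5 (2.75 to 16.3), against a genome mean of 12.2. The H3K27ac ratio to the flanks was 0.586 for Igh (0.427 to 0.794), but it was 0.331 against the lower flank and 2.55 against the higher flank, so its direction turned with the side. For Igk the ratio of 1.32 (0.887 to 1.96) was likewise 3.75 and 0.804, and for Tcra/Tcrd the ratio of 0.290 (0.167 to 0.478) was 0.474 and 0.209.

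**Figure D1:**
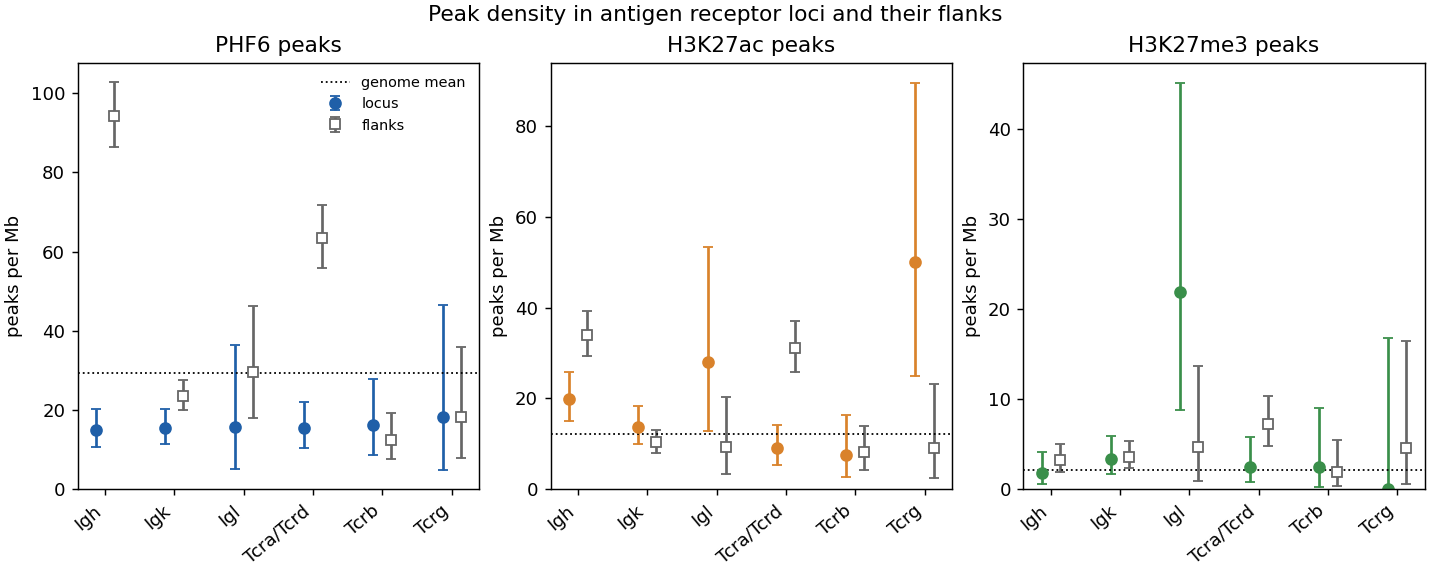
Peaks per Mb (vertical axis) in each antigen receptor window (filled circles) and in its 2 flanks of equal length (open squares), for 1 library per antibody; bars are 95% exact Poisson intervals and dotted lines the genome mean. PHF6 density stayed between 14.9 and 18.2 per Mb in all 6 windows, while H3K27ac ranged from 7.5 in Tcrb to 50.0 in Tcrg.

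Acetylated sites in the antigen receptor loci seldom coincided with PHF6. Of the 145 H3K27ac peaks in the windows, 39 overlapped a PHF6 peak by at least 1 bp (26.9%, 95% exact binomial interval 19.9 to 34.9), against 71.7% of the whole H3K27ac list. In the flanks 331 of 406 did so (81.5%, 77.4 to 85.2). The share was 21.4% in Igh (12 of 56), 22.2% in Igk (10 of 45) and 22.2% in Igl (2 of 9), against 85.3%, 73.5% and 83.3% in their flanks. It was 9.09% in Tcrg (1 of 11) and 50.0% in Tcrb (3 of 6). Tcra/Tcrd stood higher at 61.1% (11 of 18, 35.7 to 82.7), an interval that includes the share of the whole list. Over the 3 immunoglobulin windows the share was 21.8% (14.5 to 30.7), and over the 3 T-cell receptor windows it was 42.9% (26.3 to 60.6), or 23.5% when Tcra/Tcrd was left out.

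H3K27ac peaks of the immunoglobulin windows were mostly low. Summit height, a whole-number pileup deposited with each peak, moves with PHF6 overlap in the whole list (median 41 with PHF6 and 31 without). In the immunoglobulin windows the order was opposite (20 with and 25 without), while the T-cell receptor windows kept it (49 and 30). Within heights of 15 to 60 the order was opposite in the whole list too (21 and 27). The median height was 24 in the immunoglobulin and 31 in the T-cell receptor windows, against 40 and 56 in their flanks and 35 in the whole list. Tcra/Tcrd (36.5) and Tcrg (35) were not below the whole list. Heights above 100 were reached by 5 of 110 immunoglobulin peaks (4.55%, 1.49 to 10.3) and 6 of 35 T-cell receptor peaks (17.1%, 6.56 to 33.6), against 31.7% of the whole list and 35.7% of flank peaks. The interval of the T-cell receptor windows includes the share of the whole list. Within heights of 15 to 60, a range chosen after seeing the data, 25 of 122 H3K27ac peaks in the windows held PHF6 (20.5%, 13.7 to 28.7), against 63.0% of the whole list and 77.8% in the flanks (71.8 to 83.1). Peaks of like height thus differed in the same direction. Of the 11 peaks above 100, by contrast, 9 held PHF6 (81.8%, 48.2 to 97.7), against 89.8% of such peaks in the whole list. Several of these 11 lay within 50 kb of a window edge, among them the tallest of Igk, Tcra/Tcrd, Tcrb and Tcrg. Whether those near an edge belong to neighbouring genes was not tested.

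In the immunoglobulin windows, H3K27ac peaks without PHF6 mostly lay far from any PHF6 summit. The 86 such peaks in immunoglobulin windows had their nearest PHF6 summit at a median distance of 31.2 kb (quartiles 13.5 and 62.8), and the 20 in T-cell receptor windows at 13.9 kb (6.80 and 32.0). The median was 5.59 kb for the 75 such peaks in the flanks and 10.8 kb (4.44 and 27.6) for the 9175 in the whole list. The quartiles of the T-cell receptor windows thus largely overlapped those of the whole list. PHF6 density moves with this distance, and the part of the lower density in it was not tested.

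**Figure D2:**
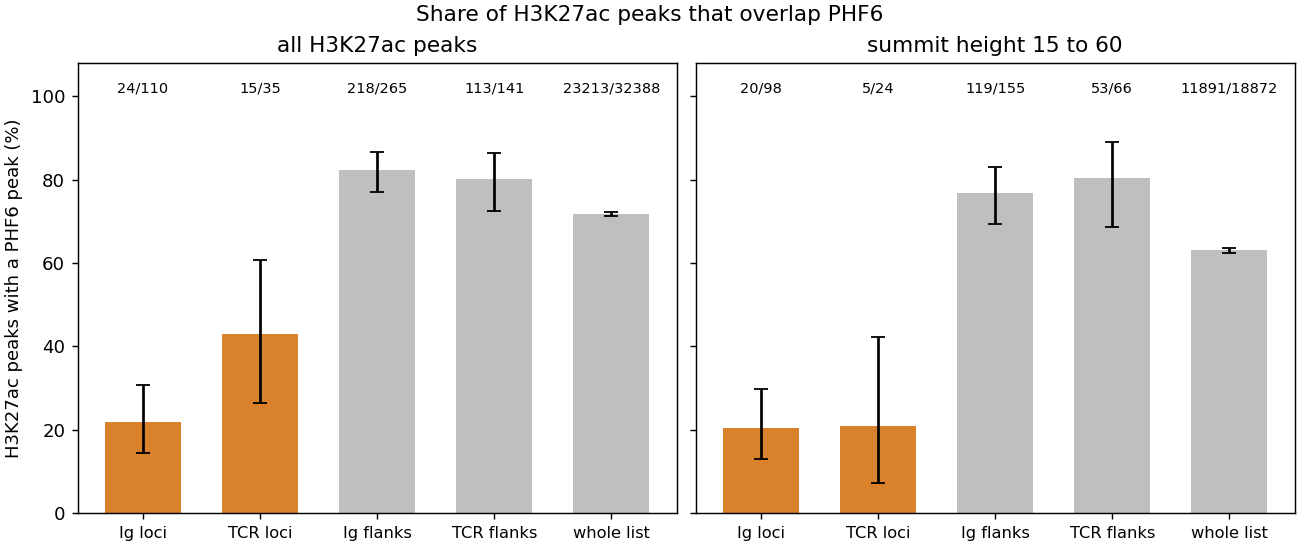
Share of H3K27ac peaks that overlap a PHF6 peak (vertical axis, percent) in immunoglobulin (Ig) and T-cell receptor (TCR) windows, their flanks and the whole list; bars carry 95% exact binomial intervals and counts stand above them. Among all peaks (left) the Ig windows stood at 21.8% and the TCR windows at 42.9%; among peaks of height 15 to 60 (right) they stood at 20.4% and 20.8%, below the 63.0% of the whole list.

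Seen from PHF6, the share with H3K27ac and the median height of all PHF6 peaks did not stand out. Of 146 PHF6 peaks in the windows, 41 overlapped H3K27ac (28.1%, 21.0 to 36.1), against 30.3% of the whole PHF6 list and 31.8% in the flanks (29.0 to 34.9). Median PHF6 height was 22 in the windows, in the flanks and in the whole list. The window peaks with H3K27ac had a median height of 23 and those without had 21. This difference was smaller than in the flanks (29 and 20) and in the whole list (29 and 20). Overlap with H3K27me3 was rare everywhere: 3 of 146 PHF6 peaks in the windows had it, against 1.88% of the list, and 4 of 145 H3K27ac peaks, against 3.58%. Where PHF6 and H3K27ac overlapped, the 39 H3K27ac peaks of the windows had their summits a median of 86 bp from the nearest PHF6 summit, against 167 bp in the flanks and 106 bp in the whole list. Of these 39, 22 were within 100 bp (56.4%), against 41.1% in the flanks and 48.7% in the whole list.

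The heavy chain locus was most densely marked at its constant-gene end. The 281 kb at that end held 22 of the 42 PHF6 peaks, 15 of the 56 H3K27ac peaks and all 5 H3K27me3 peaks. PHF6 density there was 78.3 per Mb against 7.91 in the remainder, a ratio of 9.9 (5.15 to 19.1), and H3K27ac density was 53.4 against 16.2, a ratio of 3.29 (1.69 to 6.08). The PHF6-rich flank adjoins this end, and leaving out 50 kb at each end of the window left 31 PHF6 peaks. Of the 15 H3K27ac peaks at the constant-gene end 8 held PHF6 (53.3%, 26.6 to 78.7), and of the 41 in the remainder 4 did (9.76%, 2.72 to 23.1).

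The strongest site of Igh lay 213 kb from the constant-gene end of the window. There an H3K27ac peak of 7633 bp (chr12:114659869-114667501) reached a height of 381, and a PHF6 peak of 2657 bp inside it (chr12:114661527-114664183) reached 130, with summits 419 bp apart. This was the tallest PHF6 peak of the 6 windows and the 1 of 146 above 100, against 0.154% of the whole list. The other tall acetylated sites of Igh were chr12:115616246-115618654, with a height of 327, and chr12:114460092-114467764, with a height of 148 and a width of 7673 bp. The former held a PHF6 peak of height 34 (chr12:115616773-115617888) with its summit 57 bp away. The next PHF6 peak by height, 33 at chr12:115478925-115480426, also overlapped H3K27ac. The latter began 10 kb from the window edge, and the stretch from 114460092 to 114475740 that it opened held 3 H3K27ac and 5 PHF6 summits.

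Acetylation in the remainder of Igh, which by gene order holds most V segments, came with little PHF6. H3K27ac peaks were joined across gaps up to the limit customary in super-enhancer calling. This gave 34 stretches in the whole window, constant-gene end included, of which 16 had more than 1 peak. A pair at chr12:115413766-115423377 covered 8.80 kb with a height of up to 68 and held 0 PHF6 summits, the nearest being 58205 bp from the taller summit. The longest part of Igh without H3K27ac ran for 544 kb from 114869560 to 115413765, and the longest without PHF6 for 452 kb from 115879111 to 116331594.

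**Figure D3:**
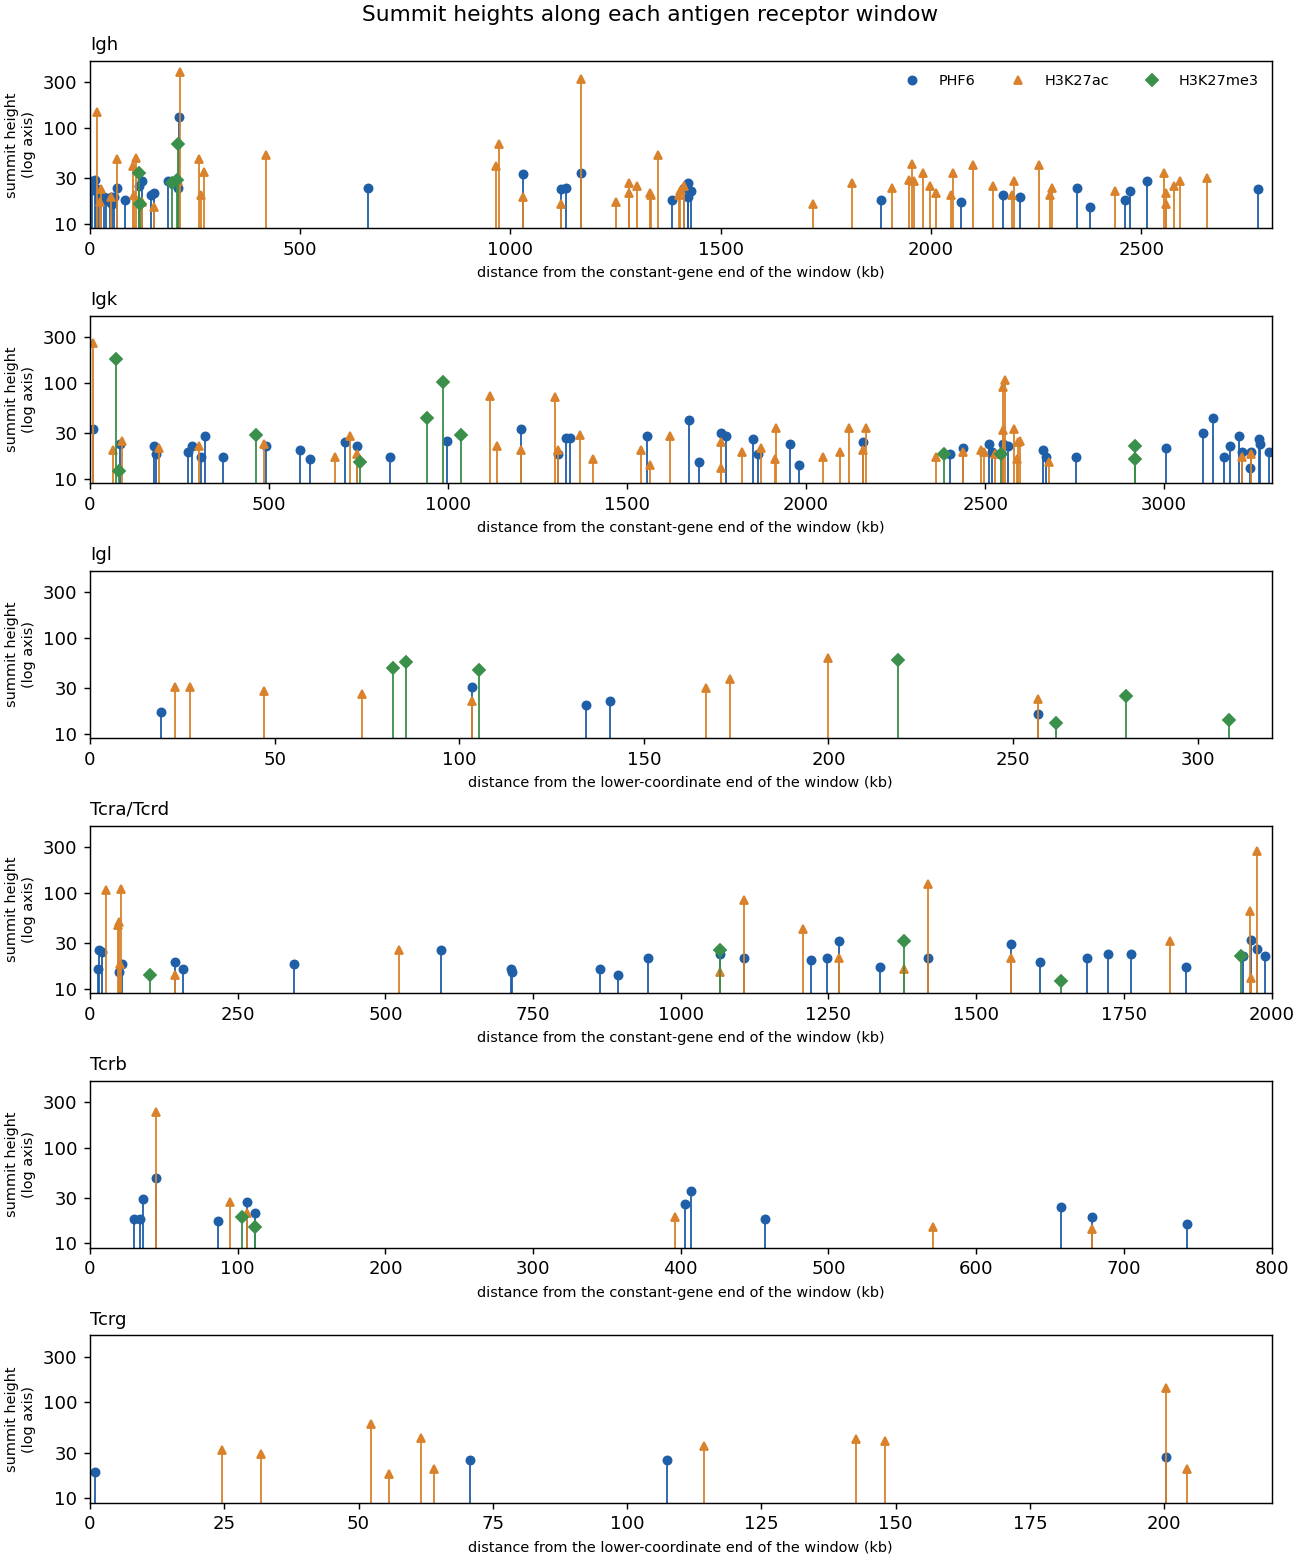
Summit height (vertical, log axis) of each PHF6 (circles), H3K27ac (triangles) and H3K27me3 (diamonds) peak along the 6 windows, against distance in kb from the constant-gene end, or from the lower-coordinate end for Igl and Tcrg. In Igh 22 of 42 PHF6 and all 5 H3K27me3 summits lie in the first 281 kb, and in Igk the tallest H3K27me3 summit (179) stands alone 73.4 kb from the constant-gene end.

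In the kappa locus the constant-gene end did not differ from the remainder beyond counting error: in the outermost 330 kb there were 8 PHF6 peaks, for a density ratio of 1.67 (0.680 to 3.60), and 5 H3K27ac peaks, for a ratio of 1.13 (0.347 to 2.85). Its longest part without H3K27ac, 537 kb from 67533746 to 68070889, was about as long as that of Igh (544 kb). The longest parts without the other 2 were shorter than in Igh. PHF6 was missing for 252 kb (452 kb in Igh). H3K27me3 was missing for 1350 kb from 68364313 to 69714500 (2599 kb in Igh). The tallest H3K27ac peak, at chr6:70740861-70743636 with a height of 264, held a PHF6 peak of height 33 with its summit 13 bp away. It lay 8.06 kb inside the window edge, on the side where Rpia, a gene of the pentose phosphate pathway, is the next gene in order. Whether it belongs to that gene was not tested.

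The H3K27ac stretch of Igk with the most covered bases lay about 2.5 Mb from the constant-gene end, among the distal V segments by order. A stretch of 3 peaks at chr6:68191245-68204672 covered 10.4 kb. It comprised chr6:68191245-68195157 (height 107), chr6:68200043-68204672 (91) and a peak of height 32 between them. The stretch had 1 PHF6 summit, of height 23, and ranked 889th of 17585 joined H3K27ac stretches of the genome by covered bases. The tallest PHF6 peaks of Igk, at chr6:67613224-67615936 (height 43) and chr6:69075431-69076570 (height 41), carried no H3K27ac. Their nearest H3K27ac summits were 80346 and 53360 bp away. The next, tied at a height of 33, were chr6:69545555-69546370 and chr6:70741208-70742610, and both overlapped H3K27ac.

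The lambda locus, the smallest immunoglobulin window, held both histone marks and 5 PHF6 peaks, at a PHF6 density (15.6 per Mb) near that of the other windows. Its 9 H3K27ac peaks had heights from 22 to 61, the tallest at chr16:19177686-19180919, the next at chr16:19151840-19154040 (37), and a pair tied at 31 at chr16:19002640-19004228 and chr16:19006607-19008576. The widest, of 4223 bp, was at chr16:19024410-19028632. PHF6 peaks of heights 31 and 16 sat on 2 of them, at chr16:19082935-19083887 and chr16:19236397-19237114, with summits 102 and 126 bp from the acetylated ones. The other PHF6 peaks, with heights of 17, 20 and 22, lay at chr16:18998725-18999558, chr16:19113821-19114581 and chr16:19120407-19121081 without either mark. H3K27ac covered 55.7 kb per Mb here against 14.8 in the flanks.

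The alpha and delta locus was sparser in acetylation than its flanks, with heights above 100 both near the window edges and inside. The 18 H3K27ac peaks covered 12.55 kb per Mb against 60.5 in the flanks and 21.9 in the genome. Their density of 9.0 per Mb had an interval (5.33 to 14.2) that included the genome mean of 12.2. At the constant-gene end, 200 kb held 6 of them, or 30 per Mb against 6.67 in the remainder, a ratio of 4.5 (1.39 to 12.96). Of these, 4 formed a stretch of 9.70 kb at chr14:54844832-54854530, opened by the peak of height 108 at chr14:54844832-54848319 and followed by heights of 18, 49 and 46, that held 2 PHF6 summits of heights 18 and 15. A further peak of height 106 at chr14:54872843-54874493 was 26.6 kb from the edge, on the side of Dad1, and held no PHF6. At the opposite edge stood the tallest, at chr14:52923487-52925799 with a height of 272 and a PHF6 peak of height 26. On that side Olfr1510 is the next gene in order. Whether this peak, or that on the side of Dad1, belongs to a neighbouring gene was not tested. With 50 kb left out at each end, 12 H3K27ac peaks remained and the ratio to the flanks was 0.204.

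In the alpha and delta locus, an acetylated site above 100 and a lower one also lay far from both edges. A peak of 965 bp at chr14:53481880-53482844 reached 124, with a PHF6 peak of height 21 and summits 40 bp apart. Another of 1142 bp at chr14:53792708-53793849 reached 84, with a PHF6 peak of the same height, 21, and summits 18 bp apart. The tallest PHF6 peaks, at chr14:52933116-52936760 (height 32), chr14:53631874-53633212 (31) and chr14:53339934-53340736 (29), all overlapped H3K27ac. Outside the 200 kb at the constant-gene end, 8 of 12 H3K27ac peaks held PHF6, a share of 66.7% (34.9 to 90.1) against 71.7% of the whole list. The 3 peaks at the low edge, from 52923487 to 52936373, were among these 8.

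The beta locus had 6 H3K27ac peaks, and 5 of them were low. The exception, of height 233 at chr6:41554270-41556308, held the tallest PHF6 peak of the locus (chr6:41554641-41556742, height 48) with summits 21 bp apart. It lay 44.7 kb from the constant-gene end of the window, on the side where Ephb6, which encodes an ephrin receptor, is the next gene in order. The other 5, with heights of 27, 21, 19, 15 and 14, were at chr6:41503328-41505505, chr6:41493137-41494044, chr6:41203344-41204600, chr6:41029206-41029994 and chr6:40921334-40922152. PHF6 was present at the second and the last of these, with heights of 27 and 19. Further PHF6 peaks of heights 35, 29 and 26, at chr6:41192724-41193649, chr6:41563974-41564936 and chr6:41196579-41197337, carried neither mark. A stretch of 289 kb from 41204601 to 41493136 held no H3K27ac, and PHF6 was missing from nearly the same stretch (291 kb).

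The gamma locus was densely acetylated, in 11 peaks that formed 5 stretches, with PHF6 at 1 of the peaks. H3K27ac peaks covered 137 kb per Mb, against 13.1 in the flanks and 21.9 in the genome, and their median width was 2593 bp against 1484 bp in the whole list. The ratio of 10.5 in covered bases exceeded that in peak number because the mean covered length was 2748 bp per peak in the window and 1442 bp in the flanks. The tallest peak (chr13:19447184-19450997, height 141) held a PHF6 peak of height 27 and lay 200.3 kb from the lower-coordinate end, on the side of Stard3nl. The next were chr13:19300674-19305033 (59) and chr13:19309843-19313619 (43), within a stretch of 4 peaks that covered 10.4 kb and ranked 894th of 17585. The widest, of 6812 bp, was chr13:19396851-19403662 (40). The other PHF6 peaks, with heights of 19, 25 and 25, were at chr13:19250569-19251248, chr13:19320439-19321072 and chr13:19356941-19357830. They did not overlap H3K27ac, and their nearest H3K27ac summits were 23580, 6644 and 6849 bp away. With 50 kb left out at each end, 7 H3K27ac peaks remained at 6.42 times the flank density.

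H3K27me3 peaks of the immunoglobulin loci were taller by median than those of their flanks, and most overlapped neither other list. The 23 peaks had a median height of 29 (quartiles 17 and 47.5), against 16 in their flanks (13 and 19) and 16 in the whole list (13 and 22). Heights above 40, a level chosen after seeing the data, were reached by 8 of 23 (34.8%), against 7.69% of the whole list and 3 of 45 flank peaks. Of the 23, 22 overlapped neither PHF6 nor H3K27ac (95.7%, 78.1 to 99.9), against 69.6% of the whole list and 66.7% in their flanks (51.0 to 80.0). In the flanks of the T-cell receptor windows the share was 82.4% (65.5 to 93.2), inside the interval of the immunoglobulin windows. Over all 6 windows, 3 of 30 overlapped PHF6 and 3 of 30 H3K27ac, against 26.0% and 21.0% of the whole list. Among peaks above 40, 7 of 8 stood alone, against 55.8% of such peaks in the whole list. Their density was 3.58 per Mb against 3.50 in the flanks, a ratio of 1.02 (0.590 to 1.73).

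Igk held the tallest H3K27me3 peak of the 6 windows, at chr6:70676058-70677145 and 73.4 kb from the constant-gene end, with a height of 179. It ranked 11th of the 5616 peaks by height and 2nd among the 3909 that overlapped neither other list. The nearest PHF6 summit was 9498 bp away and the nearest H3K27ac summit 8680 bp. The next were chr6:69764192-69765488 (height 102) and chr6:69808152-69809142 (height 43), which lay 985 and 941 kb from that end, with the nearest H3K27ac summits 133211 and 177046 bp away. Heights above 100 were thus reached by 2 of the 30 H3K27me3 peaks of the windows, against 0.730% of the whole list and 0 of 79 in the flanks. The other 8 peaks of Igk had heights from 12 to 29.

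Igl was the densest window for this mark, with 7 peaks or 21.9 per Mb (8.79 to 45.1) against 3 in its flanks, a ratio of 4.67 (1.07 to 28.0). Its tallest were at chr16:19198239-19199233 (height 59), chr16:19065211-19066080 (56) and chr16:19061468-19062571 (49), followed by a peak of 46 at chr16:19084666-19085731. These 4 were 870 to 1104 bp wide, and their nearest PHF6 summits were 1771 to 37969 bp away. The remaining 3 had heights of 25, 14 and 13.

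In Igh the 5 peaks lay between 117 and 209 kb from the constant-gene end, and the 2599 kb beyond them held none. The tallest, chr12:114658832-114661090, had a height of 69 and the greatest width of the 30 (2259 bp). It contained a PHF6 peak (chr12:114659785-114661078, height 24) and overlapped the start of the H3K27ac peak of height 381. This makes it the 1 site of the immunoglobulin windows in all 3 lists. It also overlapped a smaller H3K27ac peak (chr12:114658721-114659740, height 28), whose summit was 76 bp from its own. The other 4 were at chr12:114566742-114568256 (34), chr12:114656696-114657536 (29), chr12:114644632-114645934 (27) and chr12:114568318-114568873 (16).

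The T-cell receptor windows held 7 H3K27me3 peaks, none above 40. These had a median height of 19 and a maximum of 31, against a median of 13.5 in the flanks, and 4 stood alone. In Tcra/Tcrd 5 peaks gave 2.5 per Mb against 7.25 in the flanks, a ratio of 0.345 (0.104 to 0.901). They were at chr14:53522170-53523147 (31), chr14:53833116-53834065 (25), chr14:52950470-52951369 (22), chr14:54797999-54798643 (14) and chr14:53255883-53256539 (12). The first overlapped H3K27ac. The second was the other site in all 3 lists, where peaks of 950 bp (H3K27me3), 635 bp (H3K27ac, chr14:53833249-53833883, height 15) and 538 bp (PHF6, chr14:53833356-53833893, height 23) had summits within 88 bp. The shares of peaks in all 3 lists are 16.6% for H3K27me3, 3.08% for H3K27ac and 1.23% for PHF6 over the whole lists. The 2 peaks of Tcrb, at chr6:41496581-41497305 (19) and chr6:41488029-41488730 (15), lay 103 and 112 kb from the constant-gene end, and the latter overlapped PHF6. Tcrg held 0 peaks, for which the 95% exact Poisson interval reaches 16.8 per Mb and a limit of 3 counts allows 13.6.

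**Figure D4:**
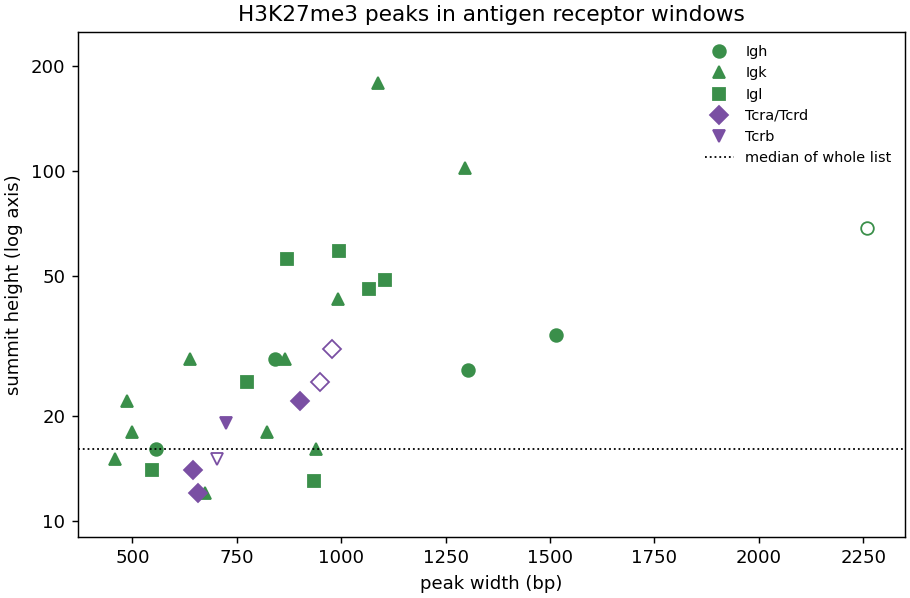
Summit height (vertical, log axis) against width in bp of the 30 H3K27me3 peaks in the windows, green for immunoglobulin and purple for T-cell receptor loci; open symbols overlap PHF6 or H3K27ac, and the dotted line is the whole-list median of 16. The 8 peaks above 40 all belong to immunoglobulin loci, and 7 of them are filled.

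Set against each other, the immunoglobulin windows held more H3K27ac peaks per Mb than the T-cell receptor windows, 17.1 against 11.6, a ratio of 1.48 (1.001 to 2.23). With Tcra/Tcrd left out the ratio was 1.03, and with Tcrg left out it was 2.00. For H3K27me3 the densities were 3.58 and 2.32, a ratio of 1.54 (0.641 to 4.26), or 1.13 with Igl left out. H3K27ac covered 29.5 kb per Mb in the immunoglobulin and 21.0 in the T-cell receptor windows, and the median H3K27ac heights were 24 and 31. Both classes thus held PHF6 and H3K27ac peaks in every locus of this pre-B leukemia, and the difference in H3K27ac density depended on which T-cell receptor locus was counted.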

How the data were processed

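Per the labels' protocols, chromatin was crosslinked with formaldehyde and sonicated, and libraries were read in single 40-nt reads. Per the submitters' processing notes, Bowtie2, SAMtools and MACS 1.4.0 were used, with build mm9; their options are not listed there. The sources used here give neither the placing of reads that match several near-identical V segments nor the use of the input as control. The authors' deposited peak lists give a score per peak with a minimum of 60, 10 times the negative log10 of the threshold in the file names. The deposited summit lists give a signal, the whole-number pileup height, with a maximum of 400. File names mark peak calling without local background for PHF6 and H3K27ac only, so heights and counts were compared within 1 list only. No read totals are given, so sequencing depth is unknown.

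A peak was counted in a window or flank when its summit lay inside. Covered bases were clipped at window borders. Overlap meant at least 1 shared bp. Densities carry exact Poisson intervals, ratios exact conditional binomial intervals and shares Clopper-Pearson intervals, all at 95% and for counting error only, although neighbours along a chromosome can share a signal. Printed with positions are, by rule, the 3 tallest summits per window and list, all peaks where a window held 5 or fewer, and peaks in all 3 lists. Others, such as stretches, second neighbours of the tallest peaks and the widest peak of a window, were chosen after their values were seen. The windows and comparisons were chosen with earlier results of these data known. Counting, overlap and joining were tested on simulated peaks. Alternatives were other membership and overlap rules, a score of at least 100, other flanks, leaving out loci, and joining at 5 kb. Python 3.11.15, scipy 1.17.1, pandas 2.3.3, matplotlib 3.10.9 and numpy 2.4.6 were used, with chromosome lengths from circlize 0.4.16 under R 4.3.3.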

Additional observations from a re-analysis of the deposited data

How the results depend on the processing

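Of 385 alternative values, 339 were counted as the same, 41 as moved and 5 as reversed. The same meant within the counting interval of the main value or, for counts, within 1.5 times of it. Covered-base ratios have no counting interval of their own. Some ratios crossed 1 without being counted as reversed. Against the higher flank, H3K27ac in Igk went from 1.32 to 0.804 (moved) and H3K27me3 in Igh from 0.556 to 1.25 (same). Flank choice moved most. Against the higher flank alone, H3K27ac in Igh was 2.55 times as dense and covered 3.01 times the bases. Against the lower flank alone, these were 0.331 and 0.280. PHF6 in Igh was 0.0870 (bases 0.0599) against the lower and 0.894 (0.991) against the higher flank. PHF6 in Igk was 1.65 (bases 1.32) against the lower flank, 0.411 (0.316) against the higher flank and 1.17 (0.905) with flanks of 2 windows. H3K27ac in Igk was 3.75 (3.77), 0.804 (0.611) and 2.57 (2.06) in the same order, and 0.852 at a score of at least 100. PHF6 in Tcra/Tcrd was 0.470 (0.417) against the lower flank, 0.113 in bases against the higher, 0.360 (0.276) with flanks of 2 windows and 0.120 (0.102) at a score of at least 100. PHF6 in Tcrb was 3.25 (3.21) against the lower flank, and H3K27ac bases in Igl were 14.9 times the higher flank. At a score of at least 100, H3K27me3 in Tcrb and PHF6 in Tcrg had 0 peaks and a ratio of 0.

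The share of immunoglobulin H3K27me3 peaks with PHF6 (4.35%) was 0 by summit position, at heights of 15 to 60 and without Igh, and with H3K27ac it was 0 under the latter pair. The share of T-cell receptor H3K27ac peaks with PHF6 was 20.8% at heights of 15 to 60 and 23.5% without Tcra/Tcrd, and that of H3K27me3 peaks with H3K27ac was 0 without Tcra/Tcrd. Median H3K27ac in T-cell receptor windows was 0.554 times the flanks by height and 0.353 by score. At a score of at least 100, median H3K27me3 height was 25 in T-cell receptor windows and 19.5 in their flanks. The causes were not tested. The runs with 50 kb left out, with heights of 15 to 60 and with loci left out for shares were added after seeing the data. No paired analysis was possible because there was 1 library per antibody.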
